A study of Rattus norvegicus with 12 samples.

Results

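The genes described here are those that carry messenger RNA into protein: eukaryotic translation initiation factors, elongation factors and the aminoacyl-tRNA synthetases that load transfer RNAs with amino acids. They were chosen by a rule on gene names, as genes whose symbol on the array begins with Eif1 to Eif6, Eef1, Eef2 or Fars, or is a single letter followed by ars with or without 1 or 2 (such as Nars2). That gave 69 genes on 73 probes, out of 9218 named genes and 13375 probes on the array. There were 36 initiation genes, 9 elongation genes and 24 synthetase genes, of which 15 serve the cytosol and 9 the mitochondrion. The name rule also takes in regulators, such as the kinases of eIF2 alpha and the eIF4E-binding proteins, and leaves out initiation genes with other names. All 69 entered the test, none through a filter on low values made here; the lowest deposited intensity of any probe was 36.5, and genes with no probe in the deposited table, such as Eif4g1, were not analysed here.

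Striatal RNA of parkinsonian rats was measured on 12 single-colour Illumina arrays, 1 array a sample. The 6 samples called LID came from parkinsonian rats that had received chronic L-DOPA methyl ester at 25 mg/kg together with benserazide at 6.25 mg/kg and were dyskinetic, and the 6 called PD control came from parkinsonian rats with no levodopa. RNA was extracted on day 8 after the chronic treatment; all 12 samples carry the parkinsonian state, and the sources used here do not give how it was produced, the side sampled, the sex, the age or whether the controls received vehicle. Since every levodopa-treated rat was dyskinetic, levodopa, benserazide and dyskinesia cannot be told apart, and since separate animals are not stated, the p-values rest on a spread between samples that may in part be technical.

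Initiation begins when eIF2 brings the initiator tRNA to the small ribosomal subunit; eIF1A and eIF3 help the subunit scan, and the eIF4F complex recruits it to the cap of the messenger RNA. The kinases PERK, GCN2, PKR and HRI phosphorylate eIF2 alpha and so block its recharging by eIF2B, the integrated stress response, under which general initiation falls while the transcription factor ATF4 is made; several cytosolic synthetase genes are known ATF4 targets. Elongation is driven by eEF1A, which delivers charged tRNA and is recharged by the eEF1B complex, and by eEF2, which moves the ribosome on and is inhibited by the calcium-dependent kinase eEF2K. In striatal neurons mTOR signalling to the cap-binding machinery has been linked with levodopa-induced dyskinesia; that control acts largely by phosphorylation, which RNA levels do not measure.

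Because the synthetases are textbook ATF4 targets, the 300-base promoter windows of the RefSeq table for the rat assembly GRCr8 (250 bases before to 50 after the annotated start) were searched for the core of the ATF4 and C/EBP response element, TGATGNAA, on both strands. Of the 69 members 60 had a window, and the cytosolic synthetases Rars1 and Gars1 were among those without. The motif stood in 6 of 13 cytosolic synthetase windows (46.2%), in 0 of 9 mitochondrial synthetase windows, in 1 of 30 initiation windows (Eif2s2) and in 0 of 8 elongation windows. It was in 4.16% of all 27457 genes of the table and in 2.37% of the 7649 genes of the table that were named on the array. Matches with up to 11 bases on either side are shown, 1 for each of these genes, whose differences are given below. They run 5′ to 3′ on the gene's strand, with the motif in capitals; where it reads TTGCATCA or TTTCATCA it lies on the opposite strand.
Tars1 (chr2:62114811-62114840, minus strand): ctggcgtcccgTTGCATCAgctggttagct
Yars1 (chr5:146820190-146820212, plus strand): acgagctcagcTGATGCAAcctg
Cars1 (chr1:208225334-208225363, minus strand): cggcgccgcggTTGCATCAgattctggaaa
Nars1 (chr18:60275778-60275807, minus strand): cctaggtgatcTGATGCAAcgcttcagtca
Iars1 (chr17:15193658-15193687, minus strand): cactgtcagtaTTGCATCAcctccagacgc
Aars1 (chr19:55908480-55908509, plus strand): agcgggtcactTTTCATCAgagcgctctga
Eif2s2 (chr3:163855588-163855617, minus strand): ttccctttcgcTGATGCAAgagcctagcgc

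The matches shown began 27 bases before the annotated start in Tars1, 36 before it in Eif2s2 and 39 after it in Yars1, with the others between 24 bases before (Iars1) and 18 after (Cars1). Windows were also searched for TGACGTG, the core of the unfolded protein response element, which was found in 4 of 60 members (6.67%; Eif3a, Eif2b3, Eef2 and Aars2) against 2.02% of the table, and for the longer ER stress element, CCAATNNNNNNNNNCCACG, which was found in 0 of 60 against 0.0765% of the table. Of the genes of the table that were named on the array, 2.41% held the first of these motifs and 0.183% the second. A match describes letters in a window and is not a measured binding site. Both of these motifs too were read on both strands.

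The tissue carried striatal genes throughout: Ppp1r1b, Drd1, Drd2, Adora2a, Penk, Tac1 and Rgs9 each lay at or above the 70.6th percentile of their array on all 12 arrays. Nevertheless 3 PD control arrays stood apart. The mean log2 value of 13 choroid plexus and ependyma markers was 8.83 in PD control replicate 1, against 6.56 to 7.74 in the other controls and 6.89 to 8.36 in LID. The mean of 10 cortical excitatory neuron markers was 8.10 in replicate 3 and 8.02 in replicate 6, against 7.34 to 7.60 in the other controls and 7.27 to 7.77 in LID. The 18 striatal projection neuron markers were at 10.43 to 10.51 in these 3 arrays, at 10.69 to 10.91 in the other controls and at 10.87 to 11.18 in LID, with 7 of 18 higher in LID at the threshold used below. Of 9 astrocyte markers 4 were higher in LID (list mean 10.12 to 10.47 in PD control, 10.40 to 10.74 in LID), and of 10 oligodendrocyte markers 2 were lower. The oligodendrocyte list mean was 10.28 in PD control replicate 3 and 10.27 to 10.77 in LID. It was 10.82 to 10.93 in the controls other than replicates 1, 3 and 6. Without those 3 arrays the groups thus did not overlap on this list. The part of this tissue make-up in the results was not tested; results are given with and without PD control replicates 1, 3 and 6, and a lower value in whole striatum cannot be divided into fewer cells of a type and less RNA per cell.

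Most translation genes differed little between the groups, and 8 of 69 (11.6%) passed an adjusted p of 0.05. Eif1a, Nars2, Tars1, Eif5a and Rars1 were higher in LID and Vars1, Eef1b2 and Eif2ak4 lower. All 8 called changes were modest, from 0.42 log2 units up (Eif1a) to 0.20 down (Eif2ak4). Over all 9218 named genes the called share was 13.5%, with 7.46% higher and 6.03% lower, so that a call was about as frequent among the members as on the array. The members' median log2 difference was 0.017 and the median size of their differences 0.076, against -0.0013 and 0.080 for all genes.

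The values are log2 intensities after background correction with an added offset of 50, so that folds of dim genes are understated, and each gene was tested with limma's moderated test across all 13375 probes with Benjamini-Hochberg adjustment. A gene with several probes is represented by the brightest. The 95% confidence interval lay within a 1.2-fold change either way for 51 of 69 members (73.9%), against 62% of all named genes, and for 50 of the 61 that were not called. At an unadjusted p under 0.05 there were 25 members (36.2%), against 27.9% of all genes. The 6 LID values lay wholly above or below the 6 control values for 5 members, of which Eif1a, Nars2 and Rars1 were higher and Eef1b2 and Vars2 lower; over all named genes this share was 6.93%.

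**Figure D1:**
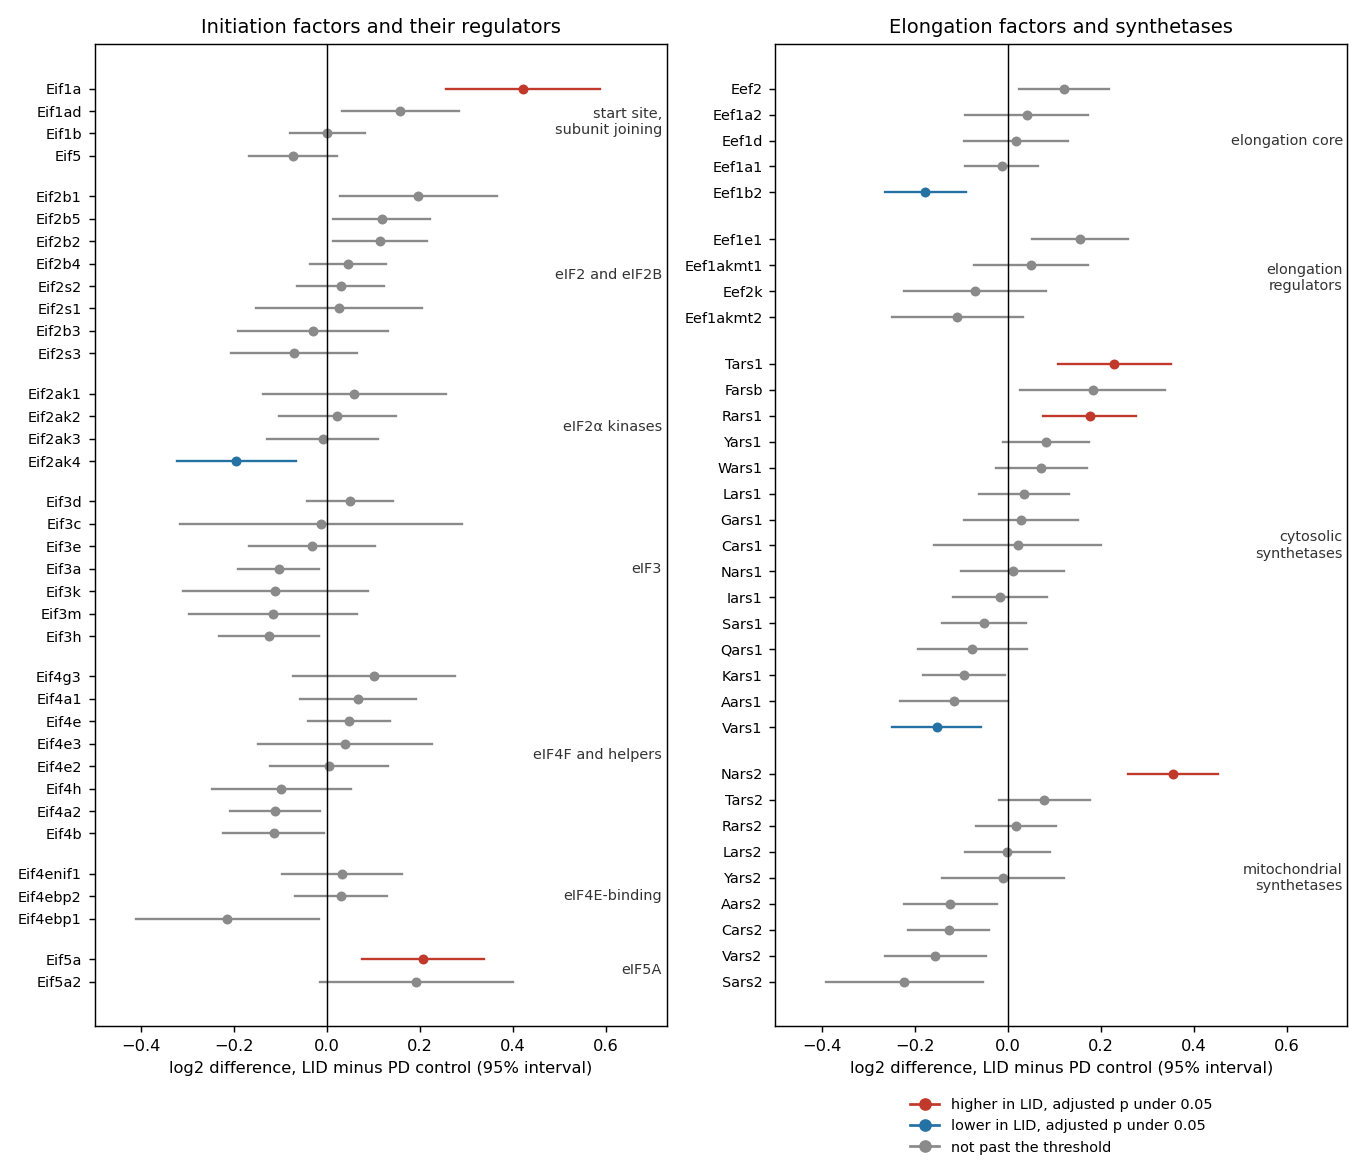
Log2 difference (LID minus PD control, x axis) of each of the 69 members with its 95% confidence interval, initiation genes in the left panel and elongation genes and synthetases in the right, grouped by role. Red marks members called higher, blue those called lower and grey those past no threshold; the 8 called members are scattered over 6 roles, and every eIF2, eIF2B, eIF3 and eIF4F gene is grey.

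Eif1a encodes eIF1A, which with eIF1 holds the small subunit open for scanning and start codon selection, and it showed the largest change of the members. Its log2 values were 7.99 at the lowest, 8.15 at the median and 8.32 at the highest in PD control, and 8.37, 8.61 and 8.80 in LID. All 6 LID samples lay above all controls. The difference was 0.42 ± 0.08 (SE, n = 6 per group), a 1.34-fold higher level (adjusted p = 0.0037). It was called in each of the 12 fits that left out 1 array and stood at 0.38 (adjusted p = 0.027) without PD control replicates 1, 3 and 6. The eIF1A gene family holds near-identical copies, which a short array probe may not separate.

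The other start-site genes were not called. Eif1b, a form of eIF1, differed by 0.0008 ± 0.038, with controls from 11.57 to 11.72 and LID from 11.57 to 11.71. Eif5, whose protein promotes GTP hydrolysis by eIF2 at the start codon, stood at -0.07 ± 0.04 (adjusted p = 0.33), and Eif1ad, named for the domain it shares with eIF1A, at 0.16 ± 0.06 (adjusted p = 0.10).

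Eif5a encodes eIF5A, the protein that carries the modified lysine hypusine and relieves stalled ribosomes during elongation and termination, despite its name. The controls ran from 10.13 through a median of 10.31 to 10.39 and LID from 10.33 through 10.51 to 10.63, so that the ranges overlapped slightly. Eif5a was 0.21 ± 0.06 higher in LID (adjusted p = 0.043). This call was kept in 3 of 12 fits that left out 1 array (PD control replicate 2, LID replicate 1 or LID replicate 2), with an adjusted p of up to 0.096 in the others, and was lost without PD control replicates 1, 3 and 6 (0.18, adjusted p = 0.18). Its paralogue Eif5a2 differed by a like amount with a wider error (0.19 ± 0.10, adjusted p = 0.24). The 2 enzymes that make hypusine are Dhps and Dohh; Dhps, the deoxyhypusine synthase, moved in the opposite direction to Eif5a, from 9.54 to 9.71 in PD control and from 9.34 to 9.51 in LID with no overlap (-0.18 ± 0.04, adjusted p = 0.014; -0.19, adjusted p = 0.064, without the 3 arrays).

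The eIF2 complex and its exchange factor eIF2B had 0 of 8 measured genes called, against 13.5% of all named genes. At an unadjusted p under 0.05 there were 3 (37.5%, against 27.9% of all named genes). All 3 had positive differences and were subunits of eIF2B. Eif2b1, the alpha subunit, had the largest difference: the controls ran from 7.76 through 7.94 to 8.11 and LID from 7.90 through 8.21 to 8.27, with overlap (0.20 ± 0.08, adjusted p = 0.13). Eif2b5, the catalytic epsilon subunit, was at 8.62, 8.81 and 8.90 (lowest, median and highest) in PD control and at 8.88, 8.90 and 8.97 in LID (0.12 ± 0.05, adjusted p = 0.14), and Eif2b2 differed by 0.11 ± 0.05. These are differences that did not pass the test. Without PD control replicates 1, 3 and 6 they were smaller, at 0.13 (Eif2b1), 0.05 (Eif2b5) and 0.07 (Eif2b2), and again uncalled. Eif2s1, the eIF2 alpha subunit that stress kinases phosphorylate, differed by 0.026 ± 0.083, with an interval from -0.15 to 0.20; its controls spread from 8.19 to 8.73 and LID from 8.32 to 8.55. Eif2s2 and Eif2s3, the beta and gamma subunits, stood at 0.030 and -0.07, and Eif2b4 and Eif2b3 at 0.05 and -0.030.

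Of the 4 eIF2 alpha kinases, only Eif2ak4 passed the threshold, and barely. Eif2ak4 encodes GCN2, which senses uncharged tRNA. It was dim, at 6.42, 6.64 and 6.77 (lowest, median, highest) in PD control and at 6.36, 6.40 and 6.59 in LID. The ranges overlapped, with all 6 LID samples below the control median. The difference was -0.20 ± 0.06 (adjusted p = 0.049); the call was kept in 2 of 12 fits that left out 1 array (PD control replicate 4 or LID replicate 2), with an adjusted p of up to 0.098 in the others, and the difference stood at -0.14 (adjusted p = 0.27) without PD control replicates 1, 3 and 6. Eif2ak3 (PERK), the kinase of the endoplasmic reticulum, differed by -0.0094 ± 0.055 with controls from 7.23 to 7.46 and LID from 7.22 to 7.47. Eif2ak2 (PKR) and Eif2ak1 (HRI) stood at 0.022 ± 0.058 and 0.06 ± 0.09.

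eIF3, the large scaffold that binds the small subunit, had 0 of 7 measured genes called, against 13.5% of all named genes. Differences were negative for 6 of 7, with a median of -0.10. At an unadjusted p under 0.05 there were 2 (28.6%, against 27.9% of all named genes). The mean deviation of the 7 genes overlapped between the groups, from -0.014 to 0.074 in PD control and from -0.11 to 0.039 in LID. Eif3h was the farthest, with controls from 10.90 through 11.10 to 11.16 and LID from 10.87 through 10.98 to 11.03 (-0.12 ± 0.05, adjusted p = 0.13); it was called without PD control replicate 6, its lowest control (-0.16, adjusted p = 0.028). Eif3a, the largest subunit, followed at -0.10 ± 0.04 (adjusted p = 0.12), and Eif3d was the single positive one (0.05 ± 0.04). The 95% interval lay within a 1.2-fold change for 4 of 7. The widest was that of Eif3c (-0.013 ± 0.14), which stood at 0.013 without PD control replicates 1, 3 and 6.

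The cap-binding complex eIF4F and its helpers likewise had 0 of 8 genes called, with 2 at an unadjusted p under 0.05 (25%, against 27.9% of all named genes). Eif4e, the cap-binding protein and the target of mTOR control, was at 9.68, 9.80 and 9.86 (lowest, median, highest) in PD control and at 9.78, 9.83 and 9.94 in LID, with broad overlap (0.05 ± 0.04, interval -0.04 to 0.14, adjusted p = 0.53). Of the RNA helicases, Eif4a2, the form abundant in brain, had values from 12.68 to 12.86 in PD control and from 12.59 to 12.70 in LID (-0.11 ± 0.04, adjusted p = 0.13), and Eif4a1 stood at 0.07 ± 0.06. Eif4b, which stimulates the helicase, showed the farthest difference of the group (-0.11 ± 0.05, adjusted p = 0.17), its values ranging from 9.87 to 10.15 in PD control and from 9.80 to 9.97 in LID. The scaffold Eif4g3 stood at 0.10 ± 0.08.

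The eIF4E-binding regulators had 0 of 3 called. Eif4ebp1 encodes 4E-BP1, which releases eIF4E when mTOR phosphorylates it. Its controls lay close together at 7.54, 7.65 and 7.79, while LID spread from 7.10 through 7.45 to 7.75. The difference of -0.21 ± 0.09 was as large as that of several called genes and did not pass (adjusted p = 0.16). Eif4ebp2, the binding protein that predominates in brain, stood at 0.030 ± 0.046, from 6.18 to 6.35 in PD control and from 6.17 to 6.37 in LID.

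**Figure D2:**
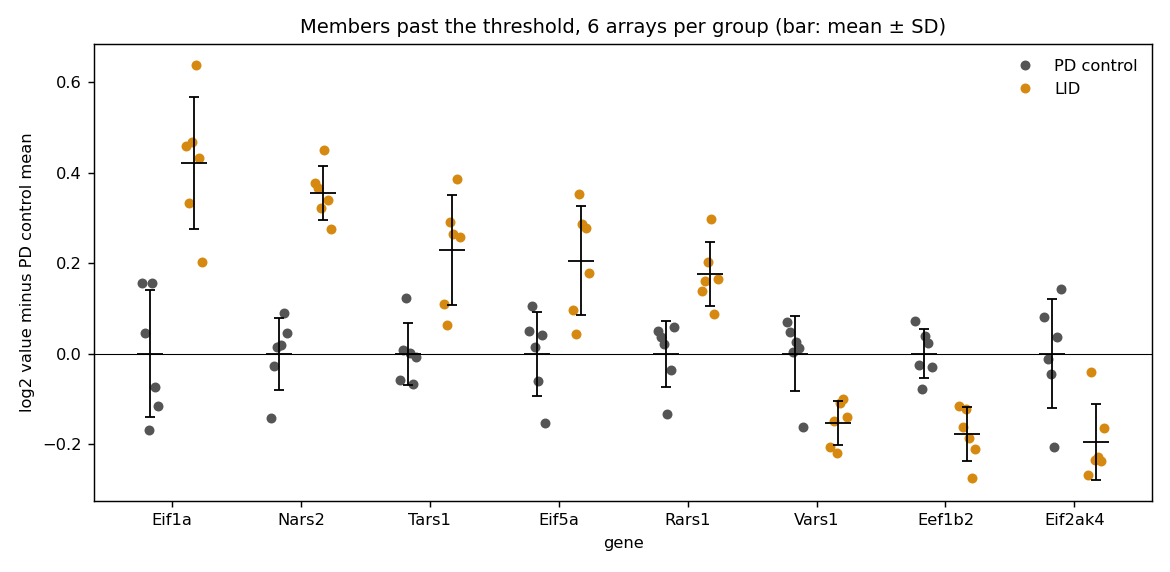
Log2 value minus the PD control mean (y axis) of the 8 called members, 1 point per array, PD control in grey and LID in orange, with the mean ± SD of 6 arrays as bars. Eif1a, Nars2, Rars1 and Eef1b2 have groups that do not overlap, while the ranges of Tars1, Eif5a, Vars1 and Eif2ak4 do.

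Among elongation genes 1 of 9 was called (11.1%, against 13.5% of all named genes). Eef1b2, which encodes the subunit of the eEF1B complex that recharges eEF1A with GTP, was lower in LID. Its control values were 11.33, 11.41 and 11.48 (lowest, median, highest) and its LID values 11.14, 11.24 and 11.29. No sample of either group reached the other. The difference was -0.18 ± 0.04 (adjusted p = 0.012), a 1.13-fold higher level in PD control; it was called in all 12 fits that left out 1 array and without PD control replicates 1, 3 and 6 (-0.19, adjusted p = 0.039).

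The genes whose proteins work beside Eef1b2 were not called. Eef1d, another exchange subunit of the same complex, stood at 0.018 ± 0.052. Eef1a1, the general eEF1A gene, had the brightest of its 4 probes between 13.97 and 14.11 in PD control and between 13.97 and 14.07 in LID (-0.014 ± 0.036), and its other probes at -0.05, -0.06 and 0.13; none was called, and the many near-copies of this gene leave the source of its signal uncertain. Eef1a2, the form that replaces it in mature neurons and muscle, stood at 0.04 ± 0.06, with controls from 12.54 to 12.93 and LID from 12.68 to 12.80.

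Eef2, the translocase, lay at 12.34, 12.40 and 12.56 (lowest, median, highest) in PD control and at 12.48, 12.56 and 12.61 in LID. Its difference of 0.12 ± 0.04 did not pass with all arrays (adjusted p = 0.10) and passed without PD control replicates 1, 3 and 6 (0.16, adjusted p = 0.0495). Its kinase Eef2k stood at -0.07 ± 0.07, from 7.73 to 8.13 in PD control and from 7.68 to 7.98 in LID. Eef1e1, whose protein sits on the multi-synthetase complex, just missed the threshold (0.15 ± 0.05, adjusted p = 0.051). Its controls ran from 9.18 through 9.26 to 9.35 and LID from 9.26 through 9.45 to 9.49.

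Messenger RNAs of the translation machinery often start with a run of pyrimidines, the 5′ terminal oligopyrimidine tract through which mTOR controls their translation. A run of at least 8 pyrimidines beginning within 5 bases of the annotated start, a definition chosen after the values were seen, was present in 6 of 60 members (10.0%) and in 5.34% of all genes in the table. The start regions of the called Eef1b2 and the uncalled Eef1a1 are shown to set them side by side, with the run in capitals, on the gene's strand of GRCr8.
Eef1b2 (chr9:72074085-72074111, plus strand): ggtcccggCCCTTTTTCTCCCTCagcg
Eef1a1 (chr8:88225060-88225080, minus strand): cttggacgTTCTTTTTCgcaa
The other 4 with a run, Eif2s3, Eif3m, Kars1 and Eef1akmt1, stood at -0.07, -0.12, -0.09 and 0.05. Eef1b2 was the single called gene among the 6, where 13.5% of all named genes were called. Eif4b, Eif3e, Eif3h and Eef1d were among the members without a window and were not searched for a run.

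The synthetases held 4 of the 8 calls, with 3 of 24 higher in LID and 1 lower (16.7% called, against 13.5% of all named genes). Of their differences 12 of 24 were positive and 12 negative, around a median of 0.0047. At an unadjusted p under 0.05 there were 10 (41.7%, against 27.9% of all named genes). Of the 9 mitochondrial synthetases 5 were among these (55.6%), and 6 of the 9 had negative differences. Nars2, the asparaginyl-tRNA synthetase of mitochondria, had the smallest adjusted p of all members. Its values were 7.45, 7.61 and 7.69 (lowest, median, highest) in PD control and 7.87, 7.95 and 8.05 in LID, so that a clear gap separated the groups. Nars2 was 0.35 ± 0.05 higher in LID, a 1.28-fold difference (adjusted p = 0.00043). It was called in all 12 fits that left out 1 array and, without PD control replicates 1, 3 and 6, stood at 0.33 (adjusted p = 0.0057).

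Tars1 encodes the cytosolic threonyl-tRNA synthetase. Its brighter probe read 8.50, 8.57 and 8.69 (lowest, median, highest) in PD control and 8.63, 8.83 and 8.96 in LID. In LID 4 of 6 samples exceeded all controls. The gene was 0.23 ± 0.06 higher (adjusted p = 0.019) and was called in all 12 fits that left out 1 array, but not without PD control replicates 1, 3 and 6 (0.25, adjusted p = 0.058). A dimmer second probe stood at 0.10 ± 0.05 (adjusted p = 0.20), so that the probes had the same sign and differed in call.

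Rars1, the cytosolic arginyl-tRNA synthetase, had values of 7.48, 7.65 and 7.68 (lowest, median, highest) in PD control and of 7.71, 7.78 and 7.92 in LID. The groups did not overlap, by a narrow margin. The difference was 0.18 ± 0.05 (adjusted p = 0.025). The call was lost when PD control replicate 4, LID replicate 3 or LID replicate 4 was left out (highest adjusted p = 0.057) and kept without PD control replicates 1, 3 and 6 (0.22, adjusted p = 0.043).

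Vars1, the cytosolic valyl-tRNA synthetase, was the synthetase that fell. It ran from 9.44 through 9.62 to 9.67 in PD control and from 9.38 through 9.46 to 9.50 in LID. A single control, replicate 6, lay among the LID values. The difference was -0.15 ± 0.04 (adjusted p = 0.040), kept in 1 of 12 fits that left out 1 array (PD control replicate 6; adjusted p up to 0.088 in the others) and at -0.18 (adjusted p = 0.034) without PD control replicates 1, 3 and 6.

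Further synthetases lay close to the threshold, and these were mitochondrial with negative differences. Cars2 stood at -0.13 ± 0.04 (adjusted p = 0.057), Vars2 at -0.16 ± 0.05 (adjusted p = 0.062) and Sars2 at -0.22 ± 0.08 (adjusted p = 0.084). Aars2 followed at -0.12 ± 0.05 (adjusted p = 0.11). The Vars2 values, 7.07 to 7.20 in PD control and 6.76 to 7.06 in LID, did not overlap. Cars2 passed without PD control replicates 1, 3 and 6 (-0.17, adjusted p = 0.039).

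The remaining cytosolic synthetases were uncalled. Gars1 (glycine) had controls from 9.68 to 9.94 and LID from 9.72 to 9.95 (0.028 ± 0.057). Wars1 (tryptophan), an interferon-responsive gene, had 7.73 to 7.97 against 7.87 to 7.99 (0.07 ± 0.05, adjusted p = 0.36). Kars1, the lysyl-tRNA synthetase of both compartments, had 9.04 to 9.18 against 8.93 to 9.09 (-0.09 ± 0.04, adjusted p = 0.16). Farsb, the beta subunit of the phenylalanine enzyme, stood at 0.18 ± 0.07 (adjusted p = 0.13), and the rest of this class between -0.12 (Aars1) and 0.08 (Yars1).

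Among the 7 genes whose promoter windows are printed above, Tars1 was the single one called, where 13.5% of all named genes were. The called Rars1 had no window, so it was not searched for the motif. The others stood at 0.08 ± 0.04 (Yars1), 0.030 ± 0.043 (Eif2s2), 0.021 ± 0.083 (Cars1), 0.011 ± 0.051 (Nars1), -0.016 ± 0.047 (Iars1) and -0.12 ± 0.05 (Aars1). Without PD control replicates 1, 3 and 6 they stood, in the same order, at 0.06, 0.05, 0.11, 0.08, 0.037 and -0.026, again uncalled. A link between the motif and the differences was not tested.

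For 9 amino acids both the cytosolic and the mitochondrial enzyme were measured, and the difference between them was compared within each array, which removes any shift that the whole array shares. These pairs were chosen with the single values known. The mitochondrial minus cytosolic log2 difference was tested between the groups with an exact two-sided permutation test over all 924 assignments of 6 arrays, whose smallest possible p is 0.00216, adjusted over the 9 pairs. For asparagine the pair shifted towards the mitochondrial Nars2 in LID by 0.34 ± 0.08 (SE; exact p = 0.0043, adjusted p = 0.019). For arginine it shifted towards the cytosolic Rars1 by -0.16 ± 0.05 (exact p = 0.0065, adjusted p = 0.019), and for threonine towards Tars1 by -0.15 ± 0.04 (exact p = 0.0065, adjusted p = 0.019).

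The other 6 pairs did not pass. Valine stood at -0.0032 ± 0.072, with Vars1 at -0.15 and Vars2 at -0.16, and alanine at -0.0076 ± 0.078. Serine (-0.17 ± 0.10), cysteine (-0.15 ± 0.10), tyrosine (-0.09 ± 0.09) and leucine (-0.036 ± 0.044) were all negative. The cysteine pair passed in 1 of 12 repeats that left out 1 array, without PD control replicate 3 (-0.23, exact permutation test, adjusted p = 0.019). In each of the 9 pairs the ranges of the groups overlapped. The asparagine and arginine shifts passed in all 12 repeats that left out 1 array, and the threonine shift in 11 of 12 (without LID replicate 5, the exact permutation test gave an adjusted p of 0.058). Without PD control replicates 1, 3 and 6 the shifts were 0.25, -0.21 and -0.18, each with an exact permutation test's adjusted p of 0.054. In that comparison the cysteine pair stood at -0.28, with the same adjusted p of 0.054 by the exact permutation test, and the alanine pair at -0.16 (adjusted p = 0.064 by the same exact test); the smallest exact p for 6 arrays against 3 is 0.0119.

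**Figure D3:**
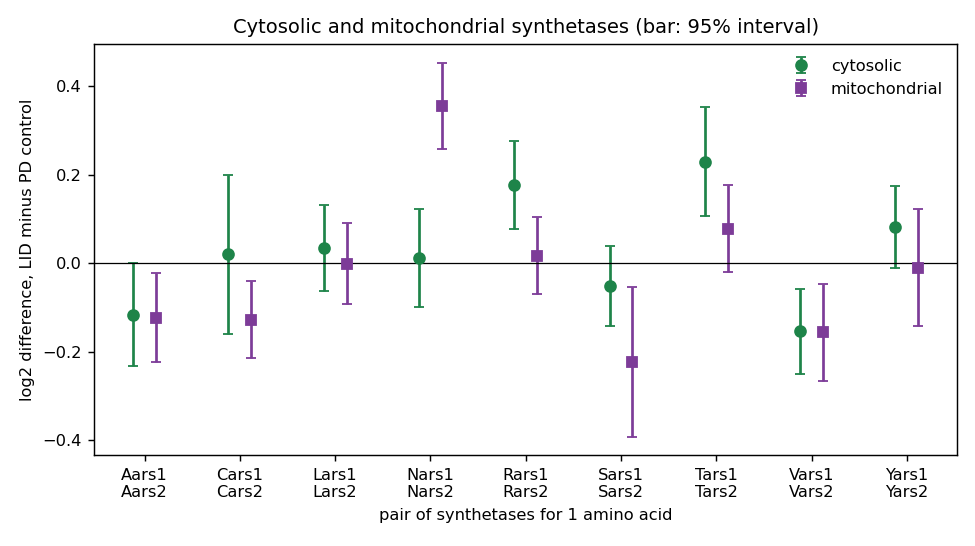
Log2 difference (LID minus PD control, y axis) of the cytosolic (circle) and the mitochondrial (square) synthetase of the same amino acid, for the 9 pairs, with 95% confidence intervals as bars. Nars2 lies above Nars1, and Rars1 and Tars1 lie above their mitochondrial partners, while both valine enzymes lie at about the same negative difference.

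Averaged over a class, the groups differed little. The mean deviation of the 36 initiation genes from their overall means ran from -0.024 to 0.014 in PD control and from -0.025 to 0.06 in LID, that of the 9 elongation genes from -0.031 to 0.07 and from -0.026 to 0.025, and that of the 24 synthetases from -0.022 to 0.036 and from -0.026 to 0.04. The groups overlapped in all 3 classes. The class medians of the log2 difference were 0.024, 0.018 and 0.0047.

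Without PD control replicates 1, 3 and 6, 7 of 69 members passed the threshold, against 8.85% of all named genes. Of these 5 were also called with all arrays (Eif1a, Nars2, Rars1, Eef1b2 and Vars1), and Cars2 and Eef2 were added.

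**Figure D4:**
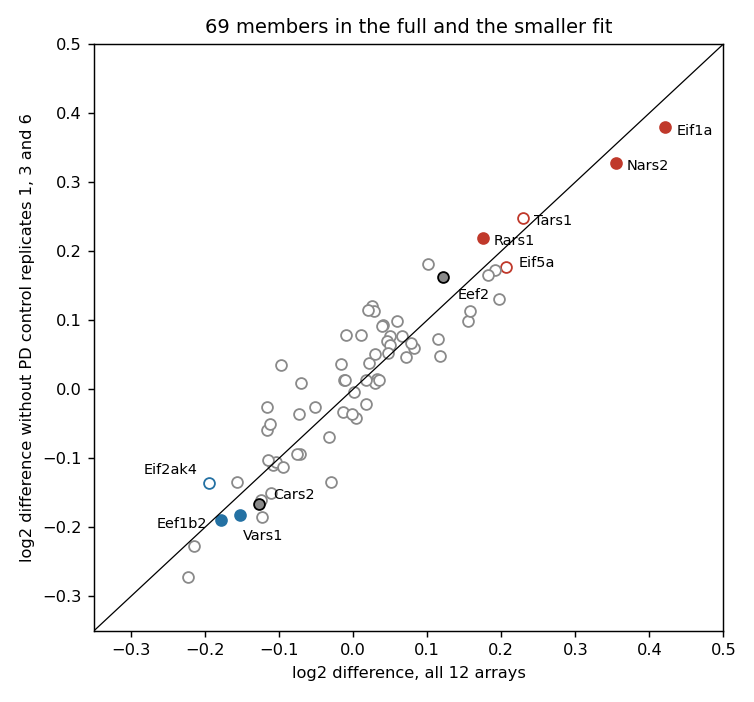
Log2 difference of each of the 69 members with all 12 arrays (x axis) and without PD control replicates 1, 3 and 6 (y axis); red and blue mark the 8 called with all arrays, filled points are called in the smaller fit, and the line marks equal values. The 8 coloured members keep their sign and 5 of them are filled, and the filled grey points are Cars2 and Eef2.

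Of the integrated stress response and ATF4 target list 29 of 37 genes were measured, and 8 were called (27.6%, against 13.5% of all named genes), 7 higher and 1 lower (7.46% and 6.03% of all named genes), with a list median of 0.054 against -0.0013 for all genes. The 2 largest rises were those of amino acid transporters. Slc7a5, which encodes the LAT1 subunit that also carries levodopa, ran from 7.39 through 7.62 to 7.84 in PD control and from 7.75 through 8.11 to 8.15 in LID (0.43 ± 0.09, adjusted p = 0.0074). Slc38a2, the neutral amino acid transporter SNAT2, had 11.09 to 11.26 against 11.41 to 11.75 with no overlap (0.41 ± 0.06, adjusted p = 0.00076). Vegfa, a growth factor gene, was 0.36 ± 0.05 higher (adjusted p = 0.00052), from 6.67 to 6.81 against 6.97 to 7.22. Shmt2, Slc3a2, Slc1a4 and Cebpg were also higher and Pck2 lower.

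Atf4 itself and the well-known targets Ddit3 and Asns were not called. Atf4 stood at -0.06 ± 0.08 (9.03 to 9.57 in PD control and 9.17 to 9.36 in LID), and at 0.12 without PD control replicates 1, 3 and 6. Ddit3, which encodes the stress factor CHOP, had 8.92 to 9.18 against 8.95 to 9.88 (0.23 ± 0.12, adjusted p = 0.28). Asns, asparagine synthetase, stood at 0.08 ± 0.05 (adjusted p = 0.39). Without the 3 arrays 5 of the 29 genes were called higher and 0 lower, where 8.85% of all named genes were called. Among the 5 were Slc7a5 (0.38, adjusted p = 0.028), Slc38a2 and Vegfa. Slc3a2 (adjusted p = 0.15), Slc1a4 (adjusted p = 0.13) and Pck2 (-0.15, adjusted p = 0.19) were no longer called.

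Of the genes that carry mTOR and MNK signals to translation, 25 of 34 were measured, with 2 higher, 2 lower (16% called, against 13.5% of all named genes) and a median of -0.014. Rragd, a Rag GTPase that brings mTOR complex 1 to the lysosome, was 0.36 ± 0.07 higher (adjusted p = 0.0037), with 7.62 to 8.04 in PD control and 8.14 to 8.29 in LID. Mlst8, a subunit of both mTOR complexes, was lower (-0.24 ± 0.04, adjusted p = 0.0014), and so was Tsc2, an inhibitor of mTOR complex 1 (-0.19 ± 0.05, adjusted p = 0.020); neither had overlapping groups. Mtor itself stood at -0.05 ± 0.05, from 9.03 to 9.32 against 9.07 to 9.20. Without PD control replicates 1, 3 and 6, Rragd (0.26) and Mlst8 (-0.25) were called and Tsc2 was not (-0.17, adjusted p = 0.068).

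Termination, recycling and ribosome rescue had 5 of 10 measured genes called, 3 higher and 2 lower, with a median of 0.038; the called share over all named genes was 13.5%, and the list was chosen with earlier results of these data known. Both subunits of the release factor were higher: Gspt1, for eRF3, had 8.80 to 9.13 in PD control against 9.20 to 9.45 in LID (0.34 ± 0.06, adjusted p = 0.0046), and Etf1, for eRF1, had 8.29 to 8.46 against 8.36 to 8.69 (0.23 ± 0.06, adjusted p = 0.017). N6amt1, the catalytic subunit of the methyltransferase that modifies eRF1, was lower (-0.24 ± 0.05, adjusted p = 0.0052). The other calls were Hbs1l, a rescue factor (0.17), and Hemk1, a release factor methyltransferase (-0.16). Without the 3 arrays Gspt1 (0.24, adjusted p = 0.042) and N6amt1 (-0.27, adjusted p = 0.020) remained called, while Etf1 (0.22, adjusted p = 0.096), Hbs1l (0.18, adjusted p = 0.097) and Hemk1 (-0.16, adjusted p = 0.084) did not.

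Other initiation regulators and poly(A)-binding proteins had 4 of 17 measured genes called (23.5%, against 13.5% of all named genes), all 4 higher, with a median of 0.06. Bzw1, a mimic of eIF5 that tightens start codon choice, rose most: its controls lay between 9.39 and 9.52 and its LID values between 9.81 and 10.33 (0.57 ± 0.08, adjusted p = 0.00051). Dnajc3, for p58IPK, which has been described as an inhibitor of eIF2 alpha kinases, had 8.37 to 8.86 against 8.97 to 9.31 (0.52 ± 0.08, adjusted p = 0.0018). Ncbp1, the larger nuclear cap-binding protein, was 0.26 ± 0.05 higher (adjusted p = 0.0036) and Pabpc4, a poly(A)-binding protein, 0.21 ± 0.04. All 4 were called without PD control replicates 1, 3 and 6, at 0.53, 0.49, 0.25 and 0.24.

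The 3 remaining lists, of 12, 9 and 4 measured genes, had 8.33%, 0% and 50% called, against 13.5% of all named genes. Of 12 measured genes for the multi-synthetase scaffold, other synthetases and tRNA handling, Angel1, a relative of the CCR4 deadenylases, was the single one called, at -0.32 ± 0.08 (adjusted p = 0.018) and uncalled without the 3 arrays (-0.26, adjusted p = 0.079); Eprs1, the glutamyl-prolyl-tRNA synthetase, stood at -0.07 ± 0.12, with controls from 6.49 to 7.33. Of 9 measured mitochondrial translation factors 0 were called by limma, with 2 at an unadjusted p under 0.05 and a median of -0.037. Of 4 measured genes for hypusine and diphthamide, Dhps was lower, as given above, and Dph2, for the first step of diphthamide on eEF2, was higher (0.15 ± 0.04, adjusted p = 0.031). Without the 3 arrays neither passed (Dph2 at 0.14, adjusted p = 0.11), and Dph1, named after its values were seen and uncalled with all arrays (-0.20 ± 0.13), was called lower (-0.44, adjusted p = 0.031).

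**Figure D5:**
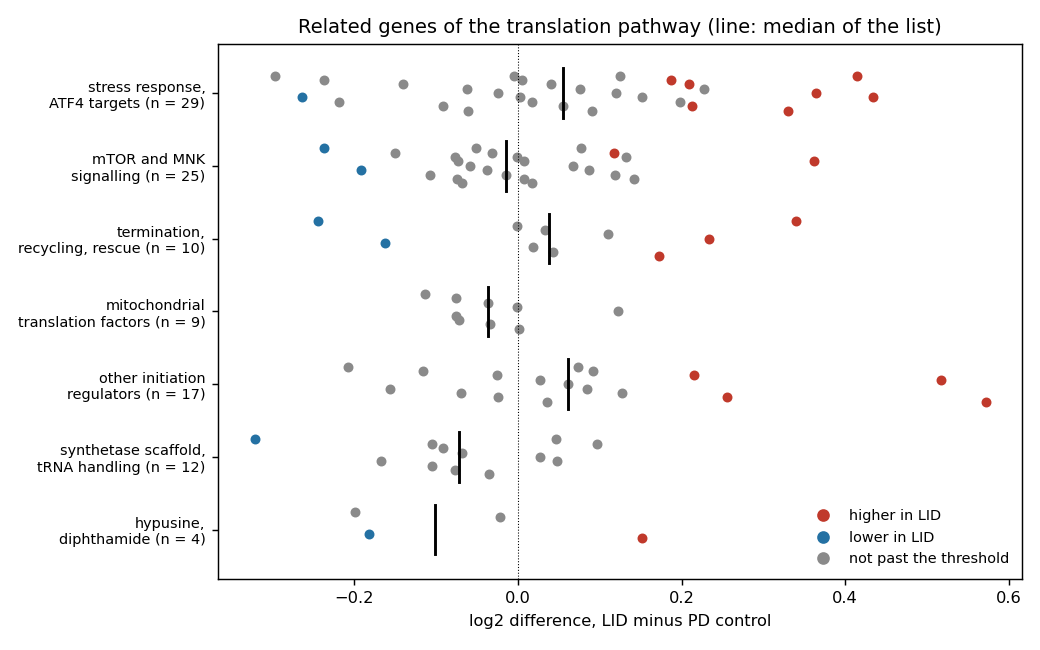
Log2 difference (LID minus PD control, x axis) of every measured gene in the 7 related lists; points are genes, red where called higher, blue where called lower and grey otherwise, and the thick vertical line is the median of the list. The list medians lie between -0.10 and 0.06, with called genes on both sides in 4 of the 7 lists.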

How the data were processed

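The values used are the intensities deposited by the authors for 12 single-colour Illumina arrays, on a linear scale; their quantiles coincide between arrays, and the software, background correction and any filter on dim probes are not stated. These values were corrected for background by normexp (offset 50), quantile normalised and taken as log2, and all 13375 probes were fitted with lmFit and eBayes (limma 3.58.1, R 4.3.3), group as the only term, with Benjamini-Hochberg adjustment at 0.05. Array number (6 per group) limits the precision. GEO's platform annotation gave 9434 probes 1 symbol and 0 probes several; the others stayed unnamed. Promoter windows are from RefSeq (GRCr8); protein sequences were not used here, and 1 motif match is not reported here.

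The name rule for members, the role groups and the related lists were chosen with earlier results of these data known. Named genes are every called member, fixed core genes, the farthest member of each of 11 role groups, up to 3 called genes with the largest change from each of 7 related lists, and 6 fixed genes; others were chosen after their values were seen. The labels count the arrays through both groups, so the LID replicate numbers used here were given in label order. Samples that share a number in this way correlated from -0.292 to 0.482 in their deviations, with 2 of 6 pairs above 0.1. The numbers were not taken as pairs. No arrays were identical. The fit was tested on simulated data. Alternatives were other normalizations, an offset of 1, log2 of the deposited intensities, a dim-probe filter, the replicate block, array weights, another variance model, 1 probe per gene, PD control replicates 1, 3 and 6 left out, and each array left out; for the synthetase pairs they were added after the data were examined.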

Additional observations from a re-analysis of the deposited data

Results flagged for a closer look

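In 5 of 92 groups of 6 samples, over the 46 named genes, 1 sample lay far from the others by Dixon's criterion; chance gives about 1 in 20 groups. Vars1 was lowest in PD control replicate 6 (9.44, the next control at 9.61), so that this array alone brings the control range into the LID range. Eif3h was also lowest in PD control replicate 6 (10.9, the next at 11.1), and without that array its difference was called (-0.16, adjusted p = 0.028). Eprs1 was highest there (7.33, the next at 6.67), and its difference changes sign without that array. In LID replicate 2, Etf1 was the lowest of its group (8.36, the next at 8.57) and Angel1 the highest (7.37, the next at 7.13); both are the values nearest to the controls. PD control replicate 6 is 1 of the 2 arrays with raised cortical markers, and the part of this in the 3 values was not tested.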

How the results depend on the processing

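Against 5 members higher and 3 lower, 3 initiation, 1 elongation and 4 synthetase genes called and 1606 probes called in all, 2 elongation genes were called under median centring, without the dimmest 25% of probes, with array weights, with 1 probe per gene and without PD control replicates 1, 3 and 6. An offset of 1 left 1 member lower and 1 initiation gene, Eif2ak4, Eif5a and Vars1 losing their call. With the replicate block, 3 members were higher and 1 lower, with 1 initiation gene, 1 elongation gene and 2 synthetases and 1332 probes called; 4 of the 8 calls were shared, and Eif2ak4, Eif5a, Rars1 and Vars1 lost theirs. That block joins samples by the numbers given here. Only 1 of 6 PD control samples correlated best with the LID sample of its number. Without PD control replicates 1, 3 and 6, 1 initiation gene and 1059 probes were called, 816 of 9218 genes among them. Leaving out 1 array gave 3 to 7 members higher, 1 to 3 lower, 1 to 3 initiation, 1 to 2 elongation and 2 to 4 synthetase genes and 1112 to 1557 probes. The uncalled Aars1, Cars2, Eef1e1, Eef2, Eif1ad, Eif3h, Farsb and Sars2 passed in 1 or 2 of these 12 fits. Some signs turned, all of them for values that were not called in either fit. Eif2ak3 was 0.022 with array weights, 0.078 without PD control replicates 1, 3 and 6 and -0.037 to 0.014 with 1 array left out. Without the 3 arrays Eef2k was 0.0083, Atf4 0.12, Eprs1 0.10 and Vars2 minus Vars1 0.047. With 1 array left out Eif2s1 ran from -0.013 to 0.10, Eef1a1 from -0.027 to 0.00014, Eprs1 from -0.11 to 0.063, Aars2 minus Aars1 from -0.041 to 0.041 and Vars2 minus Vars1 from -0.025 to 0.048. Of 1012 values of the 46 named genes under 22 alternatives, 928 kept direction and side of the threshold, 60 lost a call, 9 gained one and 15 changed sign. The cause was not tested. The dim Eif2ak4 moved from -0.20 to -0.41 with an offset of 1.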
